A study of Mus musculus with 4 samples.

Results

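The 6 genes described here, Ifitm1, Ifitm2, Ifitm3, Ly6c2, Ly6a and Ly6e, are 6 of the 32285 genes counted, found by their symbols. They were chosen with results of these data known, and which of their values led to the choice is not recorded, so their levels across cell states are given as a description with no test. Single-cell RNA was counted in spleen cells of 4 WEHI-3B-bearing BALB/c recipients (H-2Kd), 1 library per mouse, to compare donors that lack the inhibitory receptor TIM-3 in CD8 T cells (Tc) with donors that carry it. WEHI-3B is a myelomonocytic leukemia line of BALB/c origin. All recipients were lethally irradiated, received 10000 leukemia cells with allogeneic C57BL/6 (H-2Kb) bone marrow, and were given 200000 donor Tc on day 2. Spleens were taken on day 23 and enriched with a pan-T cell kit, and cells carried an oligo-tagged antibody against H-2Kb.

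Marrow and Tc came from Havcr2fl/fl;E8icre/+ donors in 2 libraries and from Havcr2fl/fl donors in the other 2. Both groups thus carry the floxed Havcr2 alleles and differ in the E8i-cre transgene, which is meant to delete Havcr2, the gene of TIM-3, in CD8 cells. The study used mice of 7 to 12 weeks. Values per library are given in the order Havcr2fl/fl;E8icre/+ replicates 1 and 2, then Havcr2fl/fl replicates 1 and 2. After filtering, 3429, 2546, 1204 and 4321 cells remained, with median depths of 5232 to 7455 unique molecular identifiers (UMIs, each marking 1 captured RNA molecule). Of these, 4276 were CD8 Tc, 1763 were CD4 Tc and 4703 lay in clusters in which 5.92% to 19.3% of cells held a Cd3 UMI, against at least 98.0% in the T cell clusters, although the samples are labelled as T cells. Libraries shared 1 to 10 cell barcodes per pair. Havcr2 itself stood at 61.2, 7.85, 54.8 and 114.5 CPM in CD8 Tc, CPM being a gene's UMIs summed over the cells of a class and scaled to the same total in each library. The library labelled Havcr2fl/fl;E8icre/+ replicate 1 therefore lay between the Havcr2fl/fl libraries, against its label. Whether Havcr2 was deleted in its cells was not tested, and genotypes below are those of the labels. In CD4 Tc Havcr2 stood at 55.6, 28.9, 16.8 and 49.1 CPM.

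The Ifitm proteins are small membrane proteins that restrict the entry of enveloped viruses, and their genes are induced by interferons in many cell types. Ly6 proteins are small surface proteins held in the membrane by a lipid anchor. Ly6a encodes Sca-1, a marker of mouse stem and activated lymphoid cells, Ly6c2 encodes a form of Ly6C used to mark monocytes and memory or effector CD8 Tc, and Ly6e is a broadly expressed interferon-induced member.

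The members lie in 2 gene clusters on GRCm38. Ifitm2 is at chr7:140954837-140955987 on the minus strand, Ifitm1 at chr7:140967221-140969825 on the plus strand and Ifitm3 at chr7:141009586-141010770 on the minus strand. On chromosome 15, Ly6e is at chr15:74955051-74959905 on the plus strand, Ly6a at chr15:74994877-74998031 on the minus strand and Ly6c2 at chr15:75108158-75111970 on the minus strand. Since reads come from the 3' end, near copies matter there. Of the 90-base windows in the last 500 bases of its transcripts, Ly6c2 shared 19.3% with Ly6c1, and Ifitm2 shared 26.5% with Gm11951, Gm45717 or Gm8865. By sequence alone, reads of such windows could not be assigned to 1 gene, so levels of Ifitm2 and Ly6c2 may carry that uncertainty. How the counting treated such reads was not tested. The other 4 members shared no such window.

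The promoters of the 3 Ifitm genes are shown because these genes were highest in the same cells (below) while differing in the letters near their starts. Each line gives the 100 bases before the RefSeq start on GRCm38.p6, 5' to 3' on the gene's strand, with matches to the interferon response element core GAAANNGAA or the gamma-activated site TTCNNNGAA in capitals.
Ifitm1 (chr7:140967976-140968075, plus strand): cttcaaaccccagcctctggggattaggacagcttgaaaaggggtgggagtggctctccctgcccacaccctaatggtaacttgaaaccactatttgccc
Ifitm2 (chr7:140955962-140956061, minus strand): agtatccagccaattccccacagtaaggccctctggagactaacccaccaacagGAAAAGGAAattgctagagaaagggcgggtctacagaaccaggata
Ifitm3 (chr7:141010745-141010844, minus strand): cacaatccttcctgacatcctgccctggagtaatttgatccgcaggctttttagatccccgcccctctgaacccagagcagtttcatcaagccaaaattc
Ifitm3 from base 3 to base 28 after its start (chr7:141010717-141010742, minus strand): GAAAAGGAAacTTCTGAGAAACCGAA
The GENCODE annotation starts Ifitm1 farther upstream, and the last bases of the Ifitm2 and Ifitm3 windows lie inside the GENCODE genes. Both strands were searched from 250 bases before to 50 bases after each start. Ifitm2 had 1 match to the interferon element, 46 bases before its start. In Ifitm3, 2 such matches began at bases 3 and 20 after the start, with a gamma-activated site match at base 14 that overlaps the second of them. Ifitm1 and both Ly6c2 entries had no match to either motif. Of 32851 RefSeq promoters of this length, 8.56% held the interferon element and 8.3% the gamma-activated site. Ly6a and Ly6e had no entry.

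T cells were divided by clustering into states, in which the families of the 6 genes were kept out of the clustering genes. States carry a name only where their marker genes allow it, and otherwise go by number and leading genes. In all, 11 states had at least 20 cells in every library. Among these, the 3 Ifitm genes were highest in CD4 cluster 3, 274 cells led by Ccr2, Lgals3 and Klf2. In the 4 libraries Ifitm2 was at 1030, 997, 858 and 1014 CPM there, and Ifitm3 at 292, 365, 299.6 and 370 CPM. In CD4 cluster 0, next in order, Ifitm2 averaged 94.3 ± 33.9 CPM and Ifitm3 80.1 ± 51.2 CPM (SD, n = 4 libraries). The lowest library of CD4 cluster 3 thus lay above the highest of the next state for both genes. Below these states Ifitm2 fell to 5.06 ± 4.07 CPM in cytotoxic-like CD4 Tc, and Ifitm3 to 8.30 ± 12.5 CPM in CD8 cycling cluster 6. All neighbors in this part of the order overlapped. Cycling CD4 Tc, 145 cells, had 12 cells in Havcr2fl/fl replicate 1, too few to enter the order. They held Ifitm2 at 131, 199, 102 and 106 CPM, with a mean of 135 ± 45.0 CPM, above that of CD4 cluster 0.

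Ifitm1 was at 937, 1243, 1036 and 644 CPM in CD4 cluster 3. In CD8 cluster 4, 527 cells led by Klf2, S1pr1 and Ccr2, it was at 411, 77.8, 236.5 and 1095 CPM. In the first of these libraries 1 cell held 167 of the 335 Ifitm1 UMIs of CD8 cluster 4. The 2 states overlapped, since the Havcr2fl/fl replicate 2 value in CD8 cluster 4 exceeded 3 of the 4 libraries of CD4 cluster 3. The other 9 states averaged at most 48.4 CPM, and cytotoxic-like CD4 Tc held 4 Ifitm1 UMIs in all. Cycling CD4 Tc, too few to enter the order, averaged 140 ± 201 CPM, from 0 to 436 CPM over libraries. The mean of the highest state was 8.46 higher on the log2 scale than that of the lowest. All 10 neighboring pairs in the order of Ifitm1 overlapped. Which state was highest for the Ifitm genes moved with the clustering. At a higher resolution it was a CD8 cluster, with Ifitm1 at a mean of 1885, Ifitm2 at 309 and Ifitm3 at 155 CPM, while the CD4 cluster with 57 of the 71 CD4 Tc of at least 3 Ifitm1 UMIs had 13 cells in 1 library and was left out. At a lower resolution, where the CD4 Tc formed 1 cluster, Ifitm1 was highest in a CD8 cluster at 594.5 CPM.

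Ly6c2 followed another order. In CD8 cluster 4 it was at 642, 741, 702 and 812 CPM, above all libraries of the other 10 states. CD4 cluster 3 came next at 299 ± 68.9 CPM, followed by TPEX-like CD8 Tc (precursors of exhausted cells) at 248 ± 130 CPM. TTEX-like CD8 Tc (terminally exhausted) had the lowest mean of the 11 states, at 12.5, 41.1, 31.5 and 30.5 CPM. They overlapped with the next state, cytotoxic-like CD4 Tc at 39.2 ± 25.8 CPM. All neighbors below CD8 cluster 4 overlapped. Treg-like CD4 Tc, too few to enter the order, averaged 4.22 ± 8.45 CPM. Short-term effector-like CD8 Tc, 81 cells and too few to enter the order, held 1747, 1139, 1624 and 1514 CPM, so that each of their libraries exceeded CD8 cluster 4.

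Ly6a and Ly6e followed one another closely. Both were highest in CD4 cluster 0, 611 cells led by Igfbp7 and Serpina3f. There Ly6a was at 1882, 1782, 1825 and 1787 CPM, and Ly6e at 1698, 1560, 1604 and 1575 CPM. Neither gene's values there overlapped with the next state, precursor-like CD4 Tc, which averaged 1457 ± 64.4 CPM for Ly6a and 1290 ± 178 CPM for Ly6e. Among the CD8 states of at least 20 cells per library TPEX-like Tc were highest, with Ly6a at 1108, 963, 1010 and 1009 CPM and Ly6e at 1183, 1026, 1054 and 959 CPM. TTEX-like Tc were lowest for both, with Ly6a at 250.1, 254.5, 300.1 and 157 CPM and Ly6e at 259.6, 308.5, 291 and 203 CPM, below every library of the other 10 states.

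**Figure D1:**
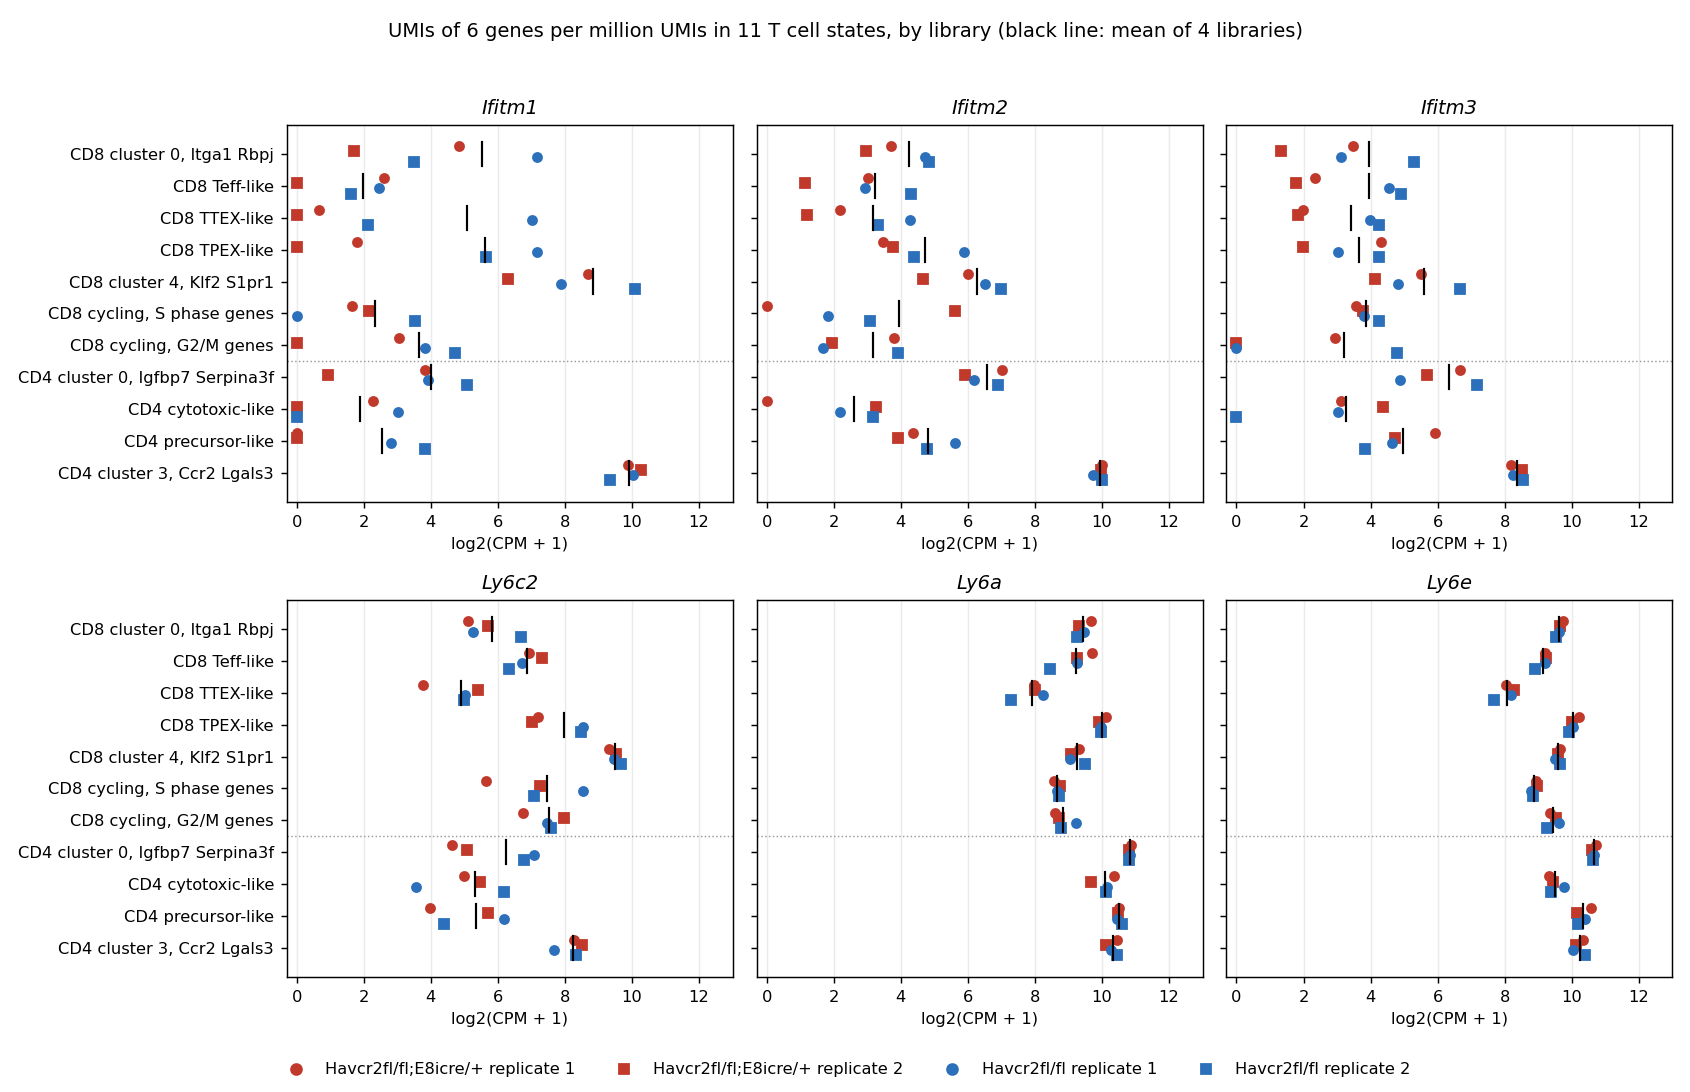
Level of each gene, as log2(CPM + 1) on the horizontal axis, in 11 T cell states on the vertical axis, with CD8 states above the dotted line and CD4 states below it. Each point is 1 library and each black line the log2 of the mean over 4 libraries, plus 1; Ifitm1 to Ifitm3 peak in CD4 cluster 3, Ly6c2 in CD8 cluster 4, and Ly6a and Ly6e in CD4 cluster 0.

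For 5 of the 6 members, Ifitm1 being the exception, the highest state stood apart from the next in this sense, which held for 7.17% of the 7563 genes of at least 20 CPM in some state. Nothing is read from that count, since the members were chosen on results of these data. Within the members, log2 levels of Ly6a and Ly6e across the 11 states gave Pearson's r = 0.94, those of Ifitm2 and Ifitm3 r = 0.95, and those of Ly6c2 and Ly6a r = -0.03. The states share libraries, so these coefficients are descriptions. Among the 7563 genes, those most like each member were Sun1, Mindy3 and L1cam for Ifitm1 (r = 0.96, 0.93 and 0.93), and Cd47, Tmem176a and Ifitm3 for Ifitm2 (r = 0.95, 0.95 and 0.95). For Ifitm3 they were Ifitm2, Cd47 and Ero1l (r = 0.95, 0.91 and 0.90), and for Ly6c2 Txndc5, Rap1gap2 and Anapc16 (r = 0.94, 0.93 and 0.92). Ier5, Heg1 and Rab37 were most like Ly6a (r = 0.98, 0.97 and 0.95), and Slco3a1, Arhgap26 and Abca3 most like Ly6e (r = 0.97, 0.95 and 0.95). Each set holds the 3 highest of 7563 coefficients over 11 states, and r does not measure the size of a change.

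In interferon-responding-like CD8 Tc, 36 cells (8, 13, 3 and 12 by library), Ly6a and Ly6e were found in every library. Ly6a was at 2703, 1979, 933 and 1609 CPM, and Ly6e at 1352, 1506, 560.0 and 923 CPM. Ifitm1 and Ifitm2 had no UMI in these cells and Ifitm3 had 1. At their depth 3 counts make 52.5 to 187 CPM in a library, so lower levels were not detectable. Over all CD8 Tc, Ifitm2 averaged 22.2 CPM and Ifitm3 16.2 CPM, below these limits. The counts thus do not set these cells apart from other CD8 Tc for Ifitm2 and Ifitm3. Treg-like CD4 Tc, 106 cells, held Ly6a at 1729 ± 396 CPM and Ly6e at 1351 ± 259 CPM, with Ly6c2 at 4.22 ± 8.45 CPM from 4 UMIs.

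Over all CD8 and CD4 Tc, 5 of the 6 members did not overlap between the lineages across the 4 libraries. In CD8 Tc Ifitm2 was at 13.1, 12.9, 31.9 and 30.8 CPM, and in CD4 Tc at 223, 192, 229.9 and 269 CPM. Ifitm3 was at 12, 5.19, 13.1 and 34.7 CPM in CD8 Tc and at 88.9, 86.8, 86.1 and 129.9 CPM in CD4 Tc. Neither gene overlapped, and the mean log2 ratio of CD8 to CD4 Tc was -3.49 ± 0.59 for Ifitm2 and -2.89 ± 0.89 for Ifitm3 (SD, n = 4). Ly6a was at 555, 589, 604 and 490.4 CPM in CD8 Tc against 1429, 1307, 1408 and 1457 CPM in CD4 Tc, a log2 ratio of -1.33 ± 0.19. Ly6e was at 629, 714, 676 and 570.2 CPM against 1261, 1170.1, 1225 and 1215 CPM, a log2 ratio of -0.92 ± 0.17. Both were higher in CD4 Tc in all libraries. Ly6c2 went the other way, at 139, 203, 269 and 239 CPM in CD8 Tc against 68.9, 114, 123 and 122 CPM in CD4 Tc, a log2 ratio of 0.99 ± 0.12. Ifitm1 was higher in CD4 Tc within each library, but the lineages overlapped. It was at 44.2, 8.83, 107 and 157 CPM in CD8 Tc against 146, 245, 229.9 and 165 CPM in CD4 Tc. With each cell thinned to 2000 UMIs, Havcr2fl/fl replicate 2 went the other way, at 198 CPM in CD8 Tc and 169 CPM in CD4 Tc. The other libraries kept their direction. Of 10893 genes, 15.0% did not overlap between the lineages in either direction and 9.91% were higher in CD4 Tc without overlap, beside which stand 5 and 4 of the 6 members.

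**Figure D2:**
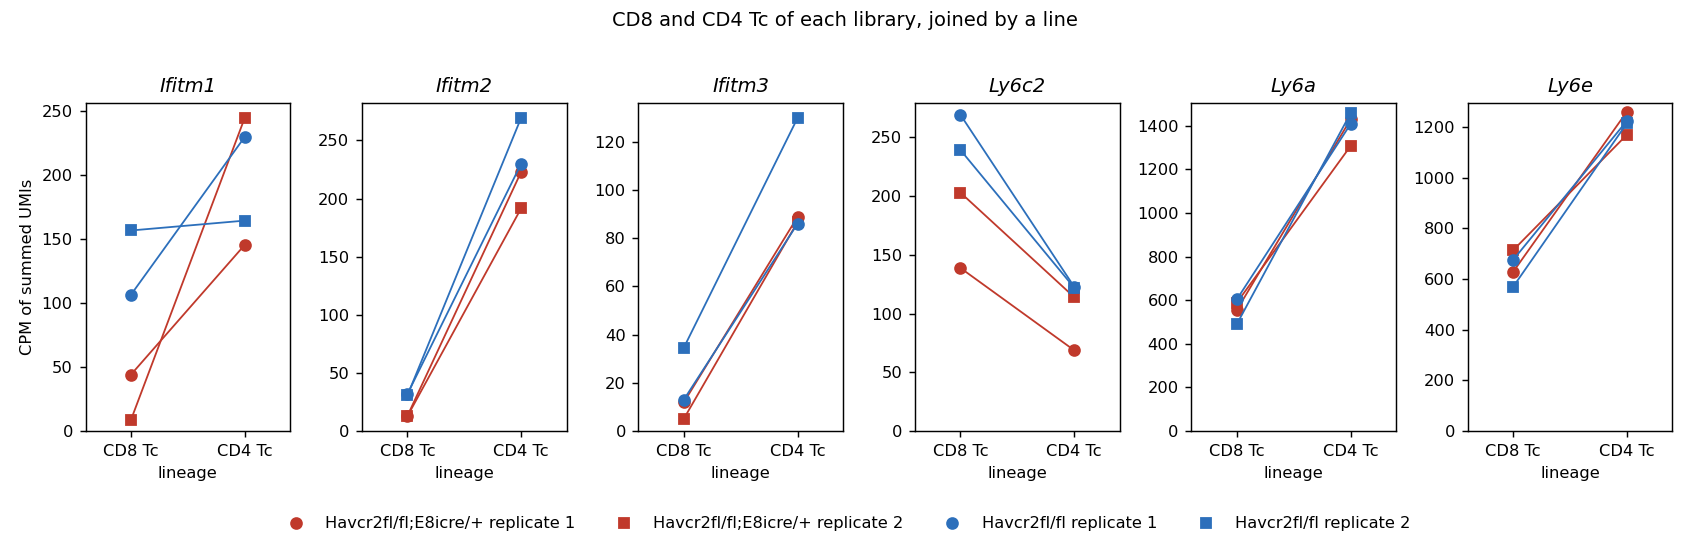
Level of each gene in CPM on the vertical axis in CD8 and CD4 Tc on the horizontal axis, with a line joining both values of 1 library. Lines rise toward CD4 Tc for all members except Ly6c2, and for Ifitm1 the Havcr2fl/fl replicate 2 line is nearly flat, from 157 to 165 CPM.

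With each cell thinned to 2000 UMIs, 53.6% ± 5.3 of CD8 Tc and 85.7% ± 2.7 of CD4 Tc held a Ly6a UMI. Unthinned, the range over libraries was 54.4% to 81.2% in CD8 Tc and 92.9% to 97.1% in CD4 Tc. Median depths were 3028 to 6975 UMIs in CD8 Tc and 2746 to 5406 UMIs in CD4 Tc. In late erythroid-like cells, which serve as a background of free RNA, 0.562% to 3.38% of thinned cells held one, at median depths of 3404 to 8331 UMIs. Thinning left out 10 to 149 CD8 Tc and 7 to 54 CD4 Tc per library, those under 2000 UMIs. Ly6e was found in 64.2% ± 4.5 of thinned CD8 Tc and 86.4% ± 0.68 of thinned CD4 Tc, against 7.14% to 9.02% of late erythroid-like cells, and unthinned in 72.6% to 91.3% and 92.6% to 98.3% of Tc. Ly6c2 was found in 15.2% ± 3.0 and 9.29% ± 2.86, with 1.12% to 2.53% in late erythroid-like cells and unthinned shares of 16.2% to 31.1% and 9.98% to 19.9%. For the Ifitm genes the shares were small: Ifitm1 in 2.52% ± 1.69 of CD8 and 6.20% ± 2.18 of CD4 Tc, Ifitm2 in 2.80% ± 1.68 and 14.9% ± 4.4. Late erythroid-like cells held 0% to 0.422% for Ifitm1 and 0.562% to 1.69% for Ifitm2, and the unthinned shares in Tc were 0.832% to 4.95% and 4.93% to 8.97% for Ifitm1, and 3.23% to 7.63% and 16.1% to 24.5% for Ifitm2. Ifitm3 was found in 2.67% ± 1.93 and 10.7% ± 4.1 of thinned Tc, unthinned in 2.08% to 8.35% and 13.7% to 19.2%. Late erythroid-like cells are no background for Ifitm3, since 11.2% to 32.5% of them held it.

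Most Ifitm1 UMIs of Tc sat in few cells. In CD8 Tc 70 cells had at least 3 Ifitm1 UMIs, 14, 4, 16 and 36 by library, and held 95.9% of the 1641 Ifitm1 UMIs. In CD4 Tc 71 such cells, 26, 24, 11 and 10 by library, held 97.0% of 1890 UMIs. Of these Ifitm1-rich cells, 52 lay in CD8 cluster 4 and 62 in CD4 cluster 3. They were 9.87% of CD8 cluster 4, ranging from 3% to 16.9% over libraries, with only 3 cells from the library labelled Havcr2fl/fl;E8icre/+ replicate 2. This division was chosen after the values were seen, and the following compares rich cells with the rest of their cluster without a test.

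Ifitm2 and Ifitm3 went with Ifitm1. In CD8 cluster 4 the rich cells held Ifitm2 at 564, 740.3, 414 and 721 CPM, against 23.9, 5.61, 65.2 and 26.9 CPM in the rest. Ifitm3 was at 298.6, 317, 196 and 489 CPM against 23.9, 8.41, 14.7 and 35.2 CPM. In CD4 cluster 3 Ifitm2 was at 2156, 2937, 2412 and 2905 CPM against 584, 301, 397 and 762 CPM, and Ifitm3 at 654.5, 935, 436 and 807 CPM against 149, 161, 259 and 311 CPM. In both clusters all libraries of the rich cells lay above all of the rest. This or the reverse held for 12.8% of 1781 genes in CD8 cluster 4 and 7.94% of 1662 in CD4 cluster 3. The genes counted had a mean of at least 100 CPM in the rich cells or in the rest. Of the rich cells, 61.5% held an Ifitm2 UMI in CD8 cluster 4 and 100% in CD4 cluster 3, compared with 4% and 39.2% of the rest.

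Other genes are named from the 8 with the largest differences in each direction, among genes whose libraries did not overlap. Their mean had to reach 100 CPM in the rich cells or in the rest, so a gene could enter through the rich cells alone. In CD8 cluster 4, AA467197 was at a mean of 321 CPM in rich cells against 59.3 CPM in the rest, and Itga1, an integrin of tissue-resident Tc, at 249 against 45.0 CPM. Il7r, the interleukin-7 receptor chain, was at 858 against 178 CPM, the calcium-dependent lipid-binding gene Cpne3 at 120 against 21.9 CPM, and Gpr183, a chemotactic receptor for oxysterols, at 150.2 against 30.7 CPM. Lowest relative to the rest were the chemokine Ccl3 at 15.0 against 187.5 CPM and the cell cycle gene Ccnb2 at 10.3 against 139.5 CPM. Ikzf2, which encodes the transcription factor Helios, was at 8.50 against 121 CPM. Eomes, a transcription factor of effector and exhausted Tc, was at 17 against 171.5 CPM. All of these lowered genes were at 0 in the library labelled Havcr2fl/fl;E8icre/+ replicate 2, whose 3 rich cells were too few to resolve low levels. In CD4 cluster 3, Klrk1, which encodes the receptor NKG2D, stood at 164 against 25.9 CPM, Swap70 at 117 against 35.8 CPM, Itga1 at 118 against 36.4 CPM and Gpr183 at 202 against 73.3 CPM. The interferon target Ifi27l2a was lower there, at a mean of 364.5 against 1582 CPM. By library it was at 763.5, 397, 95.4 and 202 CPM in rich cells and at 2409, 2322, 781 and 816 CPM in the rest.

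**Figure D3:**
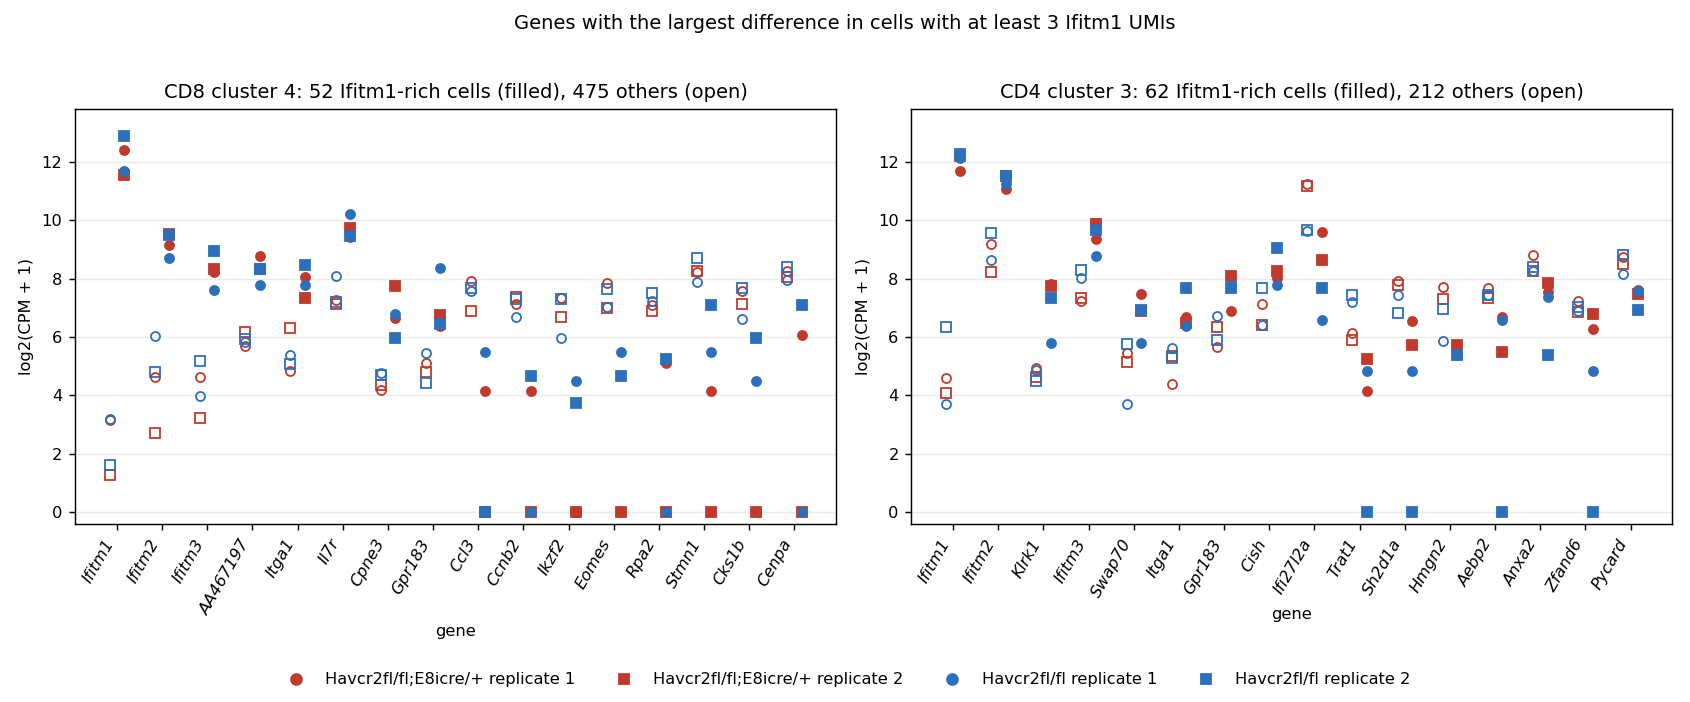
Level as log2(CPM + 1) on the vertical axis of the 8 genes most raised and the 8 most lowered (horizontal axis) in Ifitm1-rich cells, in CD8 cluster 4 on the left and CD4 cluster 3 on the right. Filled points are rich cells and open points the rest of the cluster, 1 point per library; rich cells of CD8 cluster 4 average 610 CPM of Ifitm2 against 30.4 CPM, and those of CD4 cluster 3 average 2603 against 511 CPM.

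Markers of other cell types were summed in the same cells, the 52 rich cells of CD8 cluster 4 and the 62 of CD4 cluster 3. The 6 neutrophil markers summed to 72.5 CPM in rich cells of CD8 cluster 4, from 0 to 212 CPM over libraries, against 35.9 CPM in the rest, from 18.6 to 58.3 CPM, with 1 of 6 at 0. In CD4 cluster 3 they summed to 42.5 against 44.9 CPM, with 3 of 6 at 0. The 5 basophil or mast cell markers summed to 14.5 against 10.5 CPM and to 14.2 against 13.5 CPM, with 3 of 5 at 0 in both clusters. The 6 late erythroid markers summed to 382 against 278 CPM and to 212 against 248 CPM, with 1 of 6 at 0 in both. For these lists the libraries of rich cells overlapped with those of the rest. Monocyte or macrophage markers, among them Ccr2, a leading gene of both clusters, did not overlap. They summed to 440 CPM in rich cells of CD8 cluster 4, from 318 to 635 CPM, against 112 to 154 CPM in the rest, with 3 of 6 at 0, and to 759 CPM in CD4 cluster 3, from 436 to 1024 CPM, against 280 to 389 CPM, with 4 of 6 at 0. The 5 T cell markers summed to 3697 against 4139 CPM and to 3236 against 3652 CPM, none at 0. The share of Ccr2 in the monocyte or macrophage sums was not separated, and the part of these marker lists in the result was not tested.

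Outside the T cells, neutrophil-like cells (248 cells) were highest for all 3 Ifitm genes. Ifitm3 was at 2388, 1791, 2476 and 4235 CPM there, Ifitm2 at 755, 803, 1436 and 2660 CPM, and Ifitm1 at 454, 736, 1296 and 2453 CPM. Both Ifitm1 and Ifitm2 overlapped with CD4 cluster 3, so their order is not fixed by these libraries. Ifitm3 did not overlap with the next class, granulocyte-monocyte progenitor-like cells at 893 ± 66.1 CPM. Early erythroid-like cells held Ifitm3 with little Ifitm1: in the larger class of 828 cells Ifitm3 was at 411 ± 81.4 CPM and Ifitm1 at 12.6 ± 22.0 CPM. Basophil or mast-like cells held more Ifitm1, at 912 ± 371 CPM, than Ifitm3, at 99.2 ± 32.8 CPM. Of these cells, 7 came from Havcr2fl/fl replicate 1.

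Ly6c2 was highest in plasma cell-like cells at 4202 ± 909 CPM, followed by granulocyte-monocyte progenitor-like cells at 2669 ± 299 CPM and neutrophil-like cells at 1305 ± 283 CPM. Of the plasma cell-like cells, 2 came from Havcr2fl/fl replicate 1. Ly6a averaged 2771 ± 2642 CPM in plasma cell-like cells, from 1013 to 6699 CPM over libraries, and 80.8 ± 59.2 CPM in neutrophil-like cells. With UMIs of all libraries pooled, plasma cell-like cells held Ly6a at 1734 CPM, below the 1822 CPM of CD4 cluster 0. Ly6e was highest in basophil or mast-like cells at 2249 ± 305 CPM and lowest in late erythroid-like cells at 60.7 ± 15.0 CPM.

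**Figure D4:**
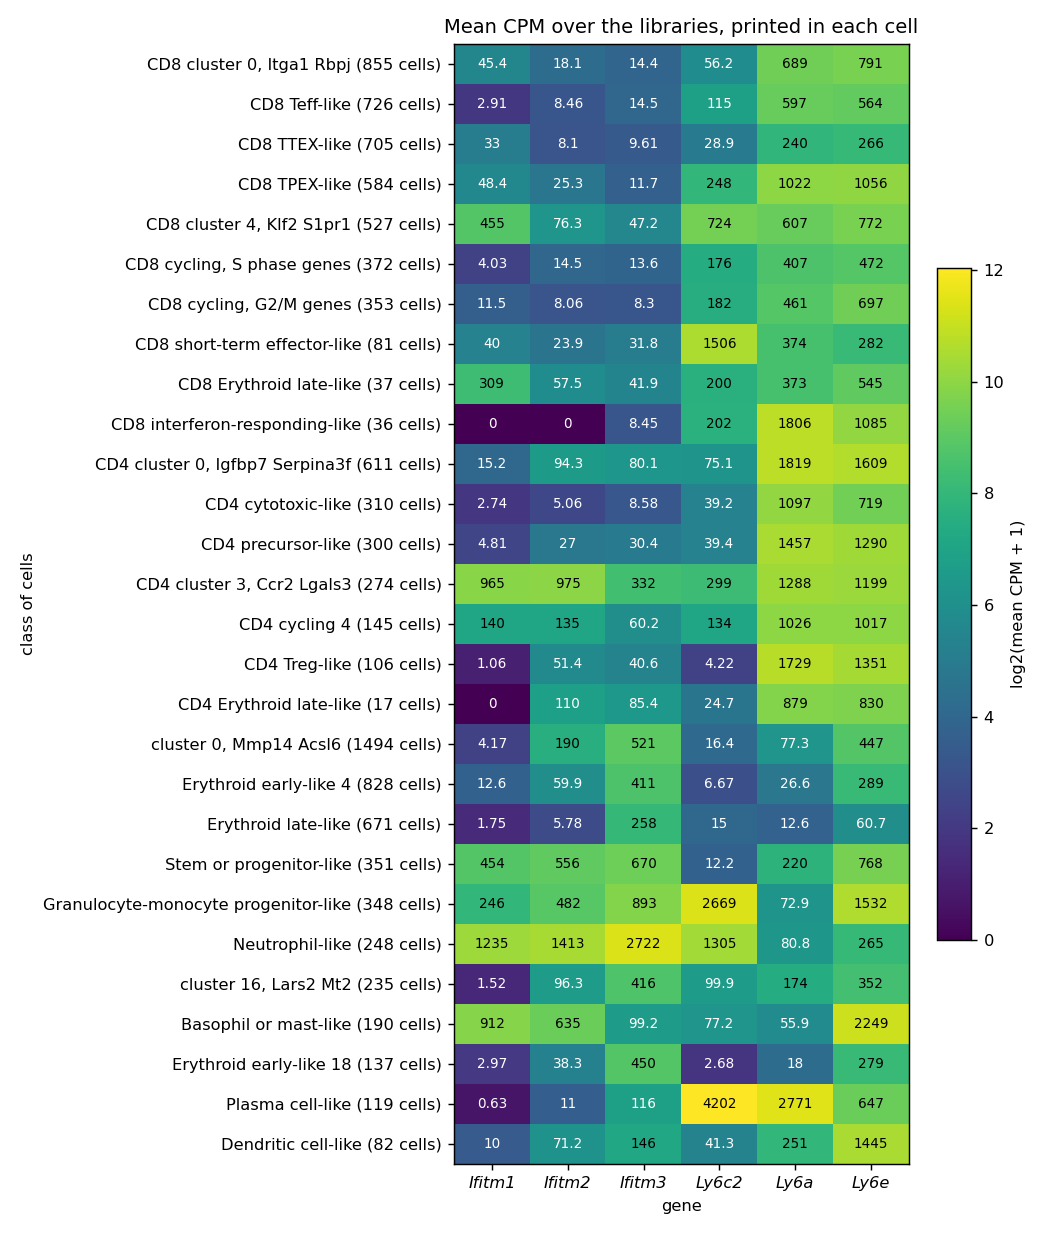
Mean CPM over libraries of each gene (horizontal axis) in every class of cells (vertical axis, with its number of cells), colored by log2(CPM + 1) with the mean CPM printed. Neutrophil-like cells have the highest mean of each Ifitm gene (1235, 1413 and 2722 CPM). For Ifitm1 and Ifitm2 their libraries overlap with those of other classes, so the order of these genes is not fixed. Plasma cell-like cells stand out for Ly6c2 and basophil or mast-like cells for Ly6e. CD4 cluster 0 averages 1819 CPM of Ly6a and 1609 CPM of Ly6e, and interferon-responding-like CD8 Tc average 1806 and 1085 CPM. The Ly6a mean of plasma cell-like cells spans 1013 to 6699 CPM over libraries, and Havcr2fl/fl replicate 1 gave 2 of these cells.

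Of the 7 Ifitm family genes, 5 reached a mean of 20 CPM in some class. Besides the members these were Ifitm6, at 3806 CPM in neutrophil-like cells and under 1 CPM in CD8 and CD4 Tc, and Ifitm10, at 103 CPM in short-term effector-like CD8 Tc. Of 33 Ly6 family genes in the files, 9 reached that level. Ly6g, the granulocyte marker, was at 919.8 CPM in neutrophil-like cells, Ly6d, a lymphoid progenitor marker, at 1088 CPM in plasma cell-like cells, and Ly6c1, the near copy of Ly6c2, at 75.6 CPM there with 268 UMIs in all cells. Ly6i, Cd59a and Plaur peaked at 28.5, 91.5 and 202 CPM outside the Tc. None of these 6 reached 4 CPM in CD8 or CD4 Tc, which leaves Ly6c2, Ly6a and Ly6e among the 9.

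Between the genotypes, no member passed the test in CD8 or CD4 Tc, by edgeR or by DESeq2, whose lowest adjusted p among the members was 0.0687, for Ifitm2 in CD8 Tc. UMIs were summed per library and tested with edgeR's quasi-likelihood test, 2 libraries against 2, in which an exact permutation test could not go below p = 0.333. Nothing in the labels says that equal replicate numbers mark a pair. In CD8 Tc 3 of 10891 genes passed an adjusted p of 0.05 (0.0275%), and in CD4 Tc 0 of 9669 (0.0%), where 303 had an unadjusted p under 0.05 and DESeq2 called 5. On the normalized CPM of this test, Ifitm1 in CD8 Tc was at 42.2 and 9.06 in the libraries labelled Havcr2fl/fl;E8icre/+ and at 108 and 159 in the Havcr2fl/fl libraries. Ifitm2 was at 12.5 and 13.2 against 32.5 and 31.1, Ifitm3 at 11.5 and 5.32 against 13.3 and 35.1, and Ly6c2 at 133 and 208 against 274 and 242. These 4 members did not overlap, as 14.1% of genes did not with lower values under that label and 27.8% in either direction. The same 4 had an unadjusted p under 0.05, as did 1.3% of genes in that direction and 2.56% in either. Whether this contrast led to their choice is not recorded. In CD4 Tc, Ifitm2, Ly6c2, Ly6a and Ly6e did not overlap and were lower under that label, beside 15.5% of genes in that direction and 31.0% in either. Ly6a there was at 1375 and 1329 against 1426 and 1505, and Ly6e at 1213 and 1189 against 1241 and 1256.

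The log2 differences (libraries labelled Havcr2fl/fl;E8icre/+ minus Havcr2fl/fl) in CD8 Tc were -2.36 for Ifitm1 (SE 0.52, edgeR adjusted p = 0.693), -1.30 for Ifitm2 (SE 0.20, edgeR adjusted p = 0.211), -1.52 for Ifitm3 (SE 0.45, edgeR adjusted p = 1.00) and -0.60 for Ly6c2 (SE 0.24, edgeR adjusted p = 1.00). Ly6a and Ly6e differed by 0.03 (SE 0.22) and 0.08 (SE 0.22). In CD4 Tc, Ifitm1 to Ifitm3 differed by -0.05, -0.32 and -0.34, Ly6c2 by -0.46, Ly6a by -0.12 and Ly6e by -0.06, none with an unadjusted p under 0.05, which 1.4% of genes had with lower values and 3.13% in either direction. Whether the difference itself differed between lineages was tested in 1 model with the library as a block, in which 2 of 10893 genes passed (0.0184%). The differences were -2.29 for Ifitm1 (edgeR adjusted p = 0.817), -0.97 for Ifitm2 (edgeR adjusted p = 0.127) and -1.10 for Ifitm3 (edgeR adjusted p = 0.997). An unadjusted p under 0.05, which these 3 members had, was found for 4.39% of genes.

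For Ifitm1 in CD8 Tc the value rests on the libraries and on few cells. Of the 394 Ifitm1 UMIs in CD8 Tc of the library labelled Havcr2fl/fl;E8icre/+ replicate 1, 1 cell held 167. Without the library labelled Havcr2fl/fl;E8icre/+ replicate 1, whose Havcr2 goes against its label, it was -3.88 and passed (edgeR adjusted p = 0.0055), among 0.091% of genes that did. Without replicate 2 of that label, in which 4 CD8 Tc were Ifitm1-rich, it was -1.66 (edgeR adjusted p = 0.722). A fit that leaves out 1 library of that label keeps only 1 there, so the spread within the label was not measured. Nothing is read from which genes pass in such a fit, here or below. Replicate 2, the library kept for the value of -3.88, held 63 Ifitm1 UMIs in 8 CD8 Tc. Whether Havcr2 was deleted in replicate 1 was not tested, so the fit without it is not preferred. With Tc divided by cluster in place of by cell, Ifitm1 differed by -1.30, Ifitm2 by -0.17 and Ifitm3 by -0.82 in CD8 Tc. With no filter on low counts the 3 Ifitm genes passed in CD8 Tc, where 0.483% of genes did, and in the test between lineages, where 0.301% did. They also passed in the latter without the library labelled Havcr2fl/fl;E8icre/+ replicate 1, where 0.408% of genes did.

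Genes of the interferon pathway were counted from lists that include receptors, signaling genes, inhibitors and targets. Of 16 type I interferon targets tested, 14 had positive log2 differences in CD8 Tc and 14 in CD4 Tc, with medians of 0.31 and 0.39. None passed the edgeR test, and 4 and 2 had an unadjusted p under 0.05. Of all genes tested, 2.56% in CD8 Tc and 3.13% in CD4 Tc had such a p. Whether the targets differed as a set was not tested. The medians over all genes were -0.00441 and -0.00593. Of 12 type II targets, 5 and 6 had positive differences, with medians of -0.04 and -0.01. None passed, and 0 and 1 had an unadjusted p under 0.05. The 8 signaling genes had 3 and 4 positive differences (medians -0.03 and 0.03), the 3 receptors 2 and 1 (medians 0.13 and -0.14), and the 3 inhibitors 1 and 2 (medians -0.04 and 0.40). None of these passed the test either, with unadjusted p under 0.05 for 1 inhibitor in CD4 Tc, nor did Ifng, the 1 ligand tested, at -0.44 in CD8 Tc, with an unadjusted p under 0.05, and -0.43 in CD4 Tc.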

How the data were processed

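The authors deposited raw UMI counts (whole numbers, not normalized), made with Cell Ranger 6.1.2 and mm10 per the submitters' processing notes. The labels name a pan-T cell kit and the study's legend a cell sort. The cell filter required 500 genes, 1000 UMIs and no more than 10% of mitochondrial UMIs. It kept 11632 of 15784 barcodes, from which 132 Scrublet calls were removed. By library these were 2, 5, 9 and 116 calls, against 119, 65, 15 and 239 at the expected rate. Clustering used Seurat 5.3.0 in R 4.3.3 with CCA integration, 2000 variable genes, 30 dimensions and 20 neighbors, with 46 family genes left out. CD8 and CD4 Tc were assigned by their UMIs of Cd8a, Cd8b1 and Cd4 in T cell clusters. CPM are the UMIs of a gene summed per library and class, as counts per 1e6 gene UMIs of that sum; means and SDs are over libraries, and intervals and limits cover counting error only. Sums were tested with edgeR 4.0.16 (TMM, filterByExpr, Benjamini-Hochberg adjustment, threshold 0.05), tested on simulated data first; DESeq2 1.42.0 was an alternative.

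The members and gene lists were chosen with earlier results of these data known. Genes named are the members, family genes of at least 20 CPM in some class, the 3 genes most like each member over states, and genes with the largest differences in Ifitm1-rich cells, chosen after values were seen. Pathway lists are given by counts, and proteins were not analysed here. Each mouse gave 1 library, so p-values measure the spread between mice, as estimated together with the other genes of the fit. Alternatives were other normalization, filters, doublet removal (including the expected rate, added after seeing the data), donor tag, lineage by cluster, replicate block, each library left out, thinning and other clusterings.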

Additional observations from a re-analysis of the deposited data

How the results depend on the processing

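With 2 libraries per genotype, counts of calls moved with most settings. In CD8 Tc the 3 calls became 83 with no filter on low counts, 0 with doublets kept, and 0 to 10 with 1 library left out. In CD4 Tc the 0 calls became 5 with DESeq2, 51 with no filter, 1 in cells positive for the donor tag, 2 with lineage by cluster, and 6 to 28 with 1 library left out. For the difference between lineages the 2 calls became 54 with no filter, 4 with the stricter cell filter (1000 genes, 5% mitochondrial UMIs), and 5 to 46 with 1 library left out.

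Same-numbered libraries deviated from their genotype means with a correlation of -0.117 in CD8 Tc and -0.0724 in CD4 Tc. With 2 libraries per genotype, pairing them crosswise only reverses the sign, so these values cannot show whether the numbers mark a pair. The replicate block gave 0 calls in CD8 Tc and 5 in CD4 Tc. A crossed replicate block, added after seeing the data, gave 59 calls in CD8 Tc.

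With no filter on low counts the CD8 log2 difference passed for Ifitm1 at -2.33 (edgeR adjusted p = 4.38e-22). Ifitm2 passed at -1.28 (edgeR adjusted p = 0.000129) and Ifitm3 at -1.49 (edgeR adjusted p = 1.48e-05). The main fit of the same sums gave -2.36, -1.30 and -1.52, and none passed. These fits differ in the genes tested, 17186 against 10891, so passing rested on which genes entered the fit. With the crossed replicate block, added after seeing the data, the 3 Ifitm genes passed at -2.63, -1.30 and -1.49, among 59 of 10891 genes. No label gives that pairing, so nothing is read from these passes. Over the libraries left out, Ifitm1 ranged from -3.88 to -1.66. The differences between lineages likewise passed with no filter, at -2.29, -0.97 and -1.09, but not in the main fit. With 1 library left out they ranged from -4.16 to -1.08 for Ifitm1, -1.14 to -0.82 for Ifitm2 and -1.82 to -0.62 for Ifitm3, and the lone library of a genotype was assumed to vary like the others. Small differences that passed no test changed sign: in CD4 Tc with doublets kept, Ifitm1 (0.0902), Ly6a (0.00589) and Ly6e (0.0384), and in CD8 Tc with the stricter cell filter, Ly6a (-0.0186). With 1 library left out, Ifitm1 in CD4 Tc ranged from -0.53 to 0.30, Ly6a in CD8 Tc from -0.12 to 0.19 and Ly6e from -0.0707 to 0.21, and the differences between lineages from -0.0282 to 0.35 for Ly6a and -0.00204 to 0.28 for Ly6e. The causes were not tested.

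Of the CD8 to CD4 ratios, Ly6c2 moved to 1.17 with thinning. The log2 range over states moved with clustering: with family genes kept, Ifitm1 to 4.41 and Ifitm2 to 5.14. The CD4 cluster holding 58 of 71 rich cells then had 13 cells in 1 library and was left out. The CD8 cluster holding 52 of 70 rich cells had 10 cells in 1 library and was left out too. At the lower and higher resolution Ly6c2 moved to 7.08 and 6.97, Ly6a to 3.71 and 3.68 and Ly6e to 2.96 and 2.99. At the higher resolution Ifitm1 moved to 10.24 with a CD8 cluster highest for all 3 Ifitm genes, at the lower one a CD8 cluster was highest for Ifitm1, and without integration Ly6a moved to 1.94 and Ly6e to 1.47.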

Other observations

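T cells that carried neither Cd8 nor Cd4 UMIs (535 cells) held Ifitm1 at 322 ± 346 CPM, from 70.9 to 833 CPM over the 4 libraries, Ly6a at 1225 ± 341 CPM and Ly6e at 1190 ± 91.3 CPM. The 223 cells with both held Ly6a at 1130 ± 177 CPM and Ly6e at 1099 ± 114 CPM. A CD8 cluster of 37 cells with late erythroid genes held 70 Ifitm1 UMIs, all in Havcr2fl/fl replicate 2.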
